A study of Mus musculus with 6 samples.

Results

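The subunits of oxidative phosphorylation were described in livers of C57BL/6J mice on a high-fat or a control diet. They were taken as the probe sets present on every array whose platform annotation gives exactly 1 symbol beginning with Nduf, Uqcr, Atp5, Cox4, Cox5, Cox6, Cox7 or Cox8, or 1 of Sdha, Sdhb, Sdhc, Sdhd, Cyc1 and Cycs. This gave 160 probe sets for 86 of the 12393 genes with such a probe set. By complex, the genes numbered 33 in complex I, 4 in complex II, 9 in complex III, 16 in complex IV (Ndufa4 counted there) and 17 in complex V. The remaining genes were 5 assembly factors of complex I whose symbols begin with Ndufaf, the carrier Cycs, and Cox7a2l, which joins complexes III and IV into supercomplexes. The symbol rule therefore also took in genes that are not subunits. A further 8 probe sets fitted the rule with 1 of several symbols and were left out.

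The groups were high-fat livers at weeks 2, 4 and 10 and control livers at weeks 2, 4 and 10, with 1 Affymetrix array each and 6 in all. The mice shared strain and tissue. The labels give neither the composition of the diets, nor sex or age, nor how many mice stand behind an array. The arrays of week 4 were of a larger design than those of weeks 2 and 10, so diets were compared within a week. Values are log2 intensities, and every difference is high-fat minus control. Each array was centred on the median of those probe sets that, after a first centring, lay above the pooled 40th percentile on all 6 arrays. A floor of 7.28 on this scale, a signal of 155.3, was set for dim probe sets, and a probe set was tested when it lay above the floor on at least 3 arrays. An array signal is read per mass of RNA from whole liver, so fewer cells of a type and less RNA per cell cannot be told apart.

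As background, the inner mitochondrial membrane carries complexes I to IV, which pass electrons from NADH and succinate to oxygen and, except for complex II, pump protons. Complex V, the ATP synthase, lets the protons return and makes ATP. Liver cells are rich in mitochondria and use the chain to oxidise the electrons released by fatty acid breakdown. Most subunits are encoded in the nucleus, and these are the ones described here. Subunits encoded in mitochondrial DNA were not analysed here.

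The subunit genes were bright: of 149 tested probe sets, 113 (75.8%) lay in the 2 brightest of 20 equal-sized brightness bins, and 66 lay in the brightest, where a bin holds 5% of all tested probe sets. Their median log2 difference was -0.13 at week 2, -0.31 at week 4 and -0.05 at week 10, against -0.04, 0.00 and 0.01 over all 14533 tested probe sets. Other probe sets of the 2 brightest bins had medians of -0.01, -0.33 and -0.11. The low values of week 4 were thus as low among bright probe sets of other genes, whereas those of week 2 were not. No member passed the test over the 3 weeks, and none kept a difference of 1.5-fold or more, with 1 sign, through weeks 2, 4 and 10 (background 0.131% lower and 0.179% higher).

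Promoters of several members are shown because NRF1 and the ETS-family factor GABP are textbook activators of respiratory chain genes. RefSeq windows (build GRCm38.p6) were matched by gene identifier for 71 of the 86 genes, 76 windows in all, and the 250 bases before the start were searched on both strands. The NRF1 letters, GCGCA and GCGC with any base between, were in 12 member windows (15.8%), against 3.74% of 32851 windows. Those windows belong to 11 genes, since the windows of Ndufa5 overlap and hold the same site. The ETS letters CCGGAAG were in 13 member windows (17.1%), against 6.91% of all windows. The CREB letters TGACGTCA were in 4 member windows (5.26%, against 1.55%), the E-box CACGTG in 7 (9.21%, against 6.02%) and the YY1 letters AAGATGGC in 1 (1.32%, against 1.56%). The E-box windows belong to 6 genes, since those of Ndufa7 overlap and hold the same site. No match overlapped a match of another of these motifs. The first 3 of the windows printed here, for a stalk subunit of complex V, the membrane anchor of complex II and the ubiquitous subunit 6a of complex IV, hold both NRF1 and ETS letters. The last, for cytochrome c, holds the CREB letters. Each runs 5′ to 3′ on the gene's strand and ends at the base before the start, with matches in capitals.
Atp5h: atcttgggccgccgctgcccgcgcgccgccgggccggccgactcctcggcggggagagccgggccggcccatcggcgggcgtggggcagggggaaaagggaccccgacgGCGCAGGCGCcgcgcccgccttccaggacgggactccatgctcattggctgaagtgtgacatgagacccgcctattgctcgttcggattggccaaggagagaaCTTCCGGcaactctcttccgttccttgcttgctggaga
Sdhd: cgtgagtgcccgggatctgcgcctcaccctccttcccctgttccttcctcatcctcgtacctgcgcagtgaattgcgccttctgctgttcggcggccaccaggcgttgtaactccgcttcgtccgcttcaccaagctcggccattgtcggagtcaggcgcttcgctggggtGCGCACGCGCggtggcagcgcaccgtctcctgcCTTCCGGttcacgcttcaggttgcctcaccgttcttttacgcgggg
Cox6a1: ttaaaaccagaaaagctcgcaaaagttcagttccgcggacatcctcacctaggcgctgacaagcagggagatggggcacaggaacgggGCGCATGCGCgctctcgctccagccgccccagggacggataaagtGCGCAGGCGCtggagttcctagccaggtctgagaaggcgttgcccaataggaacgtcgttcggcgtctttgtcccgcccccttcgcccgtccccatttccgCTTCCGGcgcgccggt
Cycs: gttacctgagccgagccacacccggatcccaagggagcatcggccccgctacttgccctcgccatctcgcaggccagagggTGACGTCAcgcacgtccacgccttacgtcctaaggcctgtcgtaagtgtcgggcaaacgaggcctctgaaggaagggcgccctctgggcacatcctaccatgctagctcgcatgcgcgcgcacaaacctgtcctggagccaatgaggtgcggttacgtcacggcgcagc
The windows sit at chr11:115419920-115420169 (Atp5h, minus strand), chr9:50603850-50604099 (Sdhd, minus strand), chr5:115348959-115349208 (Cox6a1, minus strand) and chr6:50566570-50566819 (Cycs, minus strand). A match is only a match of letters. The 20 tested probe sets of genes with NRF1 letters had median log2 differences of -0.09, -0.29 and 0.03 at weeks 2, 4 and 10, the 19 with ETS letters -0.10, -0.38 and -0.10, and the 91 with a window but neither -0.13, -0.31 and -0.09. The 3 groups therefore lay close to one another at weeks 2 and 4, though the NRF1 and ETS groups share Atp5h, Sdhd and Cox6a1.

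Counted over probe sets, 104 of 149 members (69.8%) had the lower value in high-fat liver at week 2, against 54.0% of all tested probe sets and 707 of 1341 other bright ones. At week 4 the count was 127 (85.2%), against 45.8% of all and 1102 of the 1341. At week 10 it was 81 (54.4%), against 47.8% of all and 804 of the 1341. The members' share was more than 10 points above that of other bright probe sets at week 2 and not at weeks 4 and 10. Differences of at least 1.5-fold were few. They were lower in 5 members at week 2 (background 10.2%), 12 at week 4 (background 7.27%) and 14 at week 10 (background 13.6%), and higher in 0 (background 7.38%), 2 (background 4.46%) and 5 (background 14.0%). Among other bright probe sets, the shares lower by that much were 3.88%, 20.7% and 15.2% at weeks 2, 4 and 10, and the shares higher were 4.1%, 1.27% and 6.04%. The 5 at week 2 were probe sets of Ndufa7, Ndufb1, Ndufb5, Ndufs8 and Ndufaf5. The 12 at week 4 were probe sets of Ndufa12, Ndufs8, Sdhb, Sdhd, Uqcrb, Cox5b (2), Cox6b1, Cox6c, Atp5b, Atp5g1 and Atp5g3, and the 2 higher ones were of Ndufs4 and Ndufv2. The 14 at week 10 came from Ndufa2, Ndufa5, Ndufa12, Ndufa13, Ndufb1, Ndufb7, Ndufb10, Ndufaf4 (2), Sdhd, Uqcrc2, Atp5a1, Atp5e and Atp5o, and the 5 higher ones from Ndufs1, Uqcr10, Uqcrq, Cox5b and Cox6c. The members' shares of 1.5-fold differences were near or under the background at each week.

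Each member was then set against the median of the other probe sets of its brightness bin. With that median taken off, the members' median difference was -0.11 at week 2, -0.01 at week 4 and 0.06 at week 10. Members below their own bin's median numbered 96, 75 and 66 of 149 at weeks 2, 4 and 10. At week 4 the bin medians themselves went down with brightness, to -0.07, -0.16 and -0.47 in the 3 brightest bins, while the dim bins lay at 0.00. In the brightest bin 65 of 66 had the lower value in high-fat liver at week 4, yet 39 of them lay above the median of that bin. Outside the 2 brightest bins, the 36 dimmer members had a median of -0.20 at week 2, -0.04 at week 4 and -0.10 at week 10. When the arrays of a week were scaled so that bright and dim probe sets share a centre, the members' median at week 4 was -0.04 (quantile) or 0.00 (loess), that of week 2 stayed at -0.12 under each, and that of week 10 changed sign, to 0.01 and 0.03. The plot of difference against brightness shows the members strung along the line of the other probe sets at week 4.

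**Figure D1:**
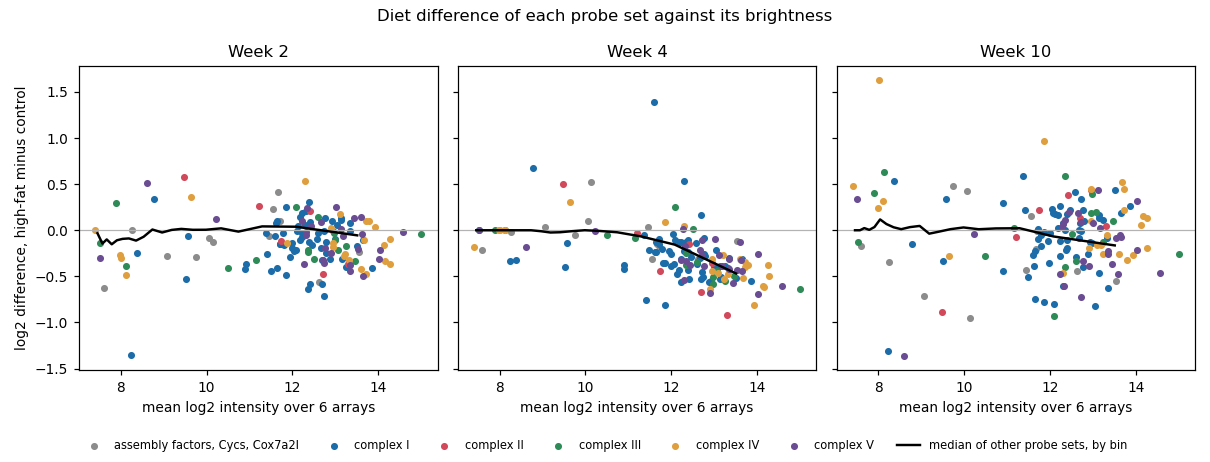
Log2 difference (high-fat minus control, vertical axis) of the 149 tested member probe sets against their mean log2 intensity over the 6 arrays (horizontal axis) at each week, 1 point per probe set coloured by complex, with the median of all other tested probe sets in each of 20 brightness bins as a black line. At week 4 the line reaches -0.47 in the brightest bin and the members follow it.

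Over the 3 weeks, limma with week as a block called 0 of the 149 members at an adjusted p under 0.05, against a background of 0.0138% (2 of 14533 probe sets). The lowest adjusted p of a member was 0.993 by limma, and 1 member had an unadjusted p under 0.05, against 586 of all tested probe sets. Each week has 1 array per diet, so the error in this test comes from the spread of the diet difference between weeks. A diet effect that grows or fades therefore enlarges it. The fit also draws the spread of each probe set toward a value estimated from all tested probe sets. An SE is thus not a probe set's own spread alone. Ndufb3, at -0.15, -0.14 and -0.10 over the weeks, had an SE of 0.21. Members lower at all 3 weeks numbered 45 (30.2%), against 11.7% of all tested probe sets and 26.0% of other bright ones, and 0 were higher at all 3 weeks, against 8.24% of all and 4.33% of other bright ones. The 45 became 25 under quantile and 23 under loess scaling, against 10.7% and 9.22% of all tested probe sets there. These counts carry no test.

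The medians of the 5 complexes lay nearest to one another at week 4. At week 2 the median log2 difference was -0.13 in complex I (63 tested probe sets), -0.01 in complex II (7), -0.19 in complex III (16), -0.15 in complex IV (24) and -0.05 in complex V (27). At week 4 the medians were -0.31, -0.35, -0.30, -0.38 and -0.32 for complexes I to V. At week 10 they were -0.05, 0.14, -0.01, 0.08 and -0.07, and complex IV was at 0.0043 there without its 4 tested probe sets of tissue isoforms. Within every complex the probe sets spread more widely than these medians differ: in complex I the quartiles were -0.30 and 0.05 at week 2 and -0.28 and 0.18 at week 10. Under quantile and loess scaling the median of complex V turned positive at weeks 4 (0.01 and 0.03) and 10 (0.01 and 0.05), and that of complex III at week 10 (0.07 and 0.03; 0.01 on the deposited scale). The other medians kept their sign under the scalings tried, apart from complex IV at week 4, which was 0.00 under loess.

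**Figure D2:**
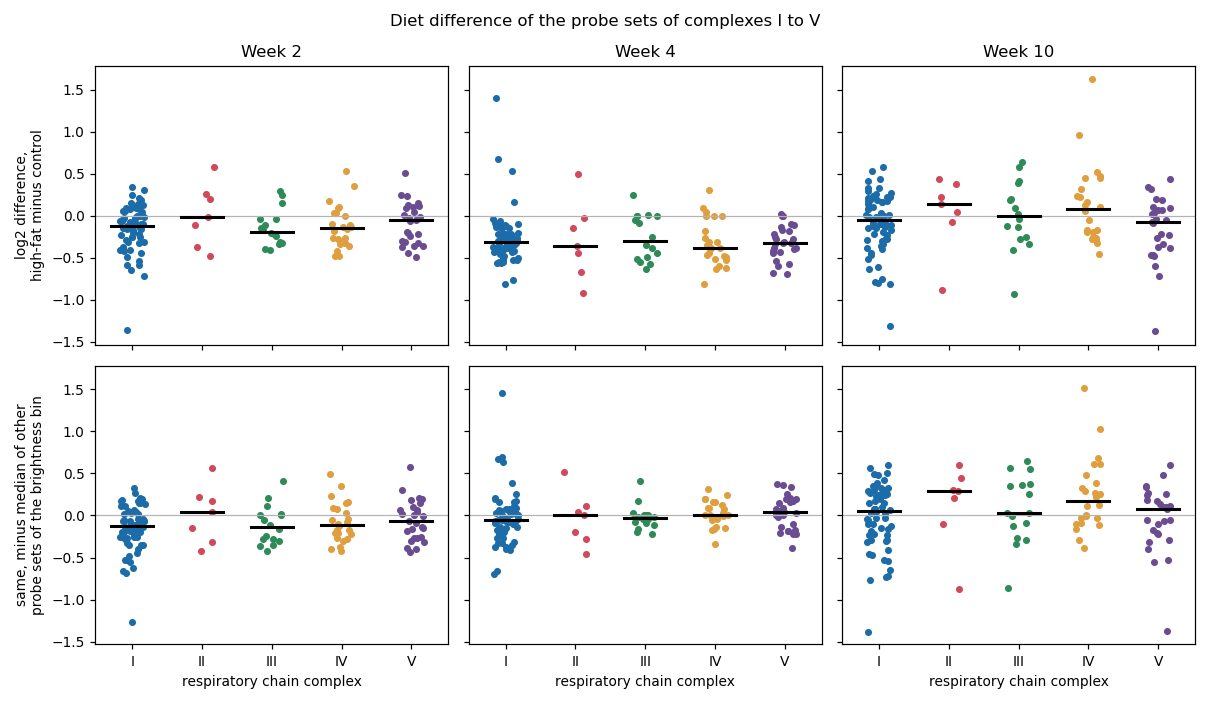
Log2 difference (high-fat minus control) of each tested probe set of complexes I to V at weeks 2, 4 and 10 (upper row), and the same after subtracting the median of other probe sets of its brightness bin (lower row), with a bar at each median. The medians of week 4 lie between -0.38 and -0.30 in the upper row and between -0.06 and 0.04 in the lower.

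Against their brightness bins the complexes lay closer to 0 at week 4, with medians of -0.06, 0.01, -0.03, 0.00 and 0.04 for complexes I to V. At week 2 complexes I, III and IV lay below their bins, at -0.13, -0.14 and -0.12, while complex V was at -0.06 and complex II at 0.04. At week 10 complexes II and IV lay above their bins by 0.29 and 0.17, and complexes I, III and V by 0.05, 0.03 and 0.08. Members lower at all 3 weeks made up 22 of 63 in complex I, 0 of 7 in complex II, 4 of 16 in complex III, 5 of 24 in complex IV and 11 of 27 in complex V. Differences between complexes were not tested.

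Complex I takes electrons from NADH. Its 6 measured core subunits, most of which hold the flavin or iron-sulphur clusters, had 16 tested probe sets with medians of -0.06, -0.34 and 0.06 at weeks 2, 4 and 10. The 27 accessory subunits, with 47 probe sets, had medians of -0.15, -0.30 and -0.10. Ndufs1, the largest iron-sulphur subunit, had log2 intensities of 11.17, 11.71 and 11.50 on the high-fat arrays of weeks 2, 4 and 10, against 11.19, 11.77 and 10.92 on the control arrays. It was level between diets until week 10, when it was 0.59 higher, and its mean difference was 0.17 ± 0.23 (SE; limma adjusted p = 1.0). Ndufv1, which binds NADH, differed by 0.19, -0.31 and -0.12, and Ndufs3, a core subunit of the arm that carries electrons to ubiquinone, by 0.09, -0.43 and -0.10. Ndufs7, which carries the last cluster before ubiquinone, differed by -0.03, -0.56 and 0.27 on its brighter probe set and by -0.15, -0.10 and 0.01 on the other. Ndufs8, which carries the clusters before that one, had 6 tested probe sets that disagreed: they lay between -0.59 and -0.01 at week 2, between -0.76 and 0.17 at week 4 and between -0.29 and 0.34 at week 10. Ndufv2, which holds a cluster near the NADH site, differed by -0.25, -0.28 and 0.10 on its brightest probe set and by -0.13, -0.10 and -0.21 on the next. Its dimmest probe set had 11.74, 12.41 and 11.17 on the high-fat arrays, against 11.80, 11.02 and 11.44 on the control arrays. Its 1.40 at week 4 was the highest difference of any member that week, and neither of the other probe sets of Ndufv2 was higher then.

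Among accessory subunits, Ndufa5 had 11.53, 11.81 and 10.95 on the high-fat arrays, against 11.94, 11.94 and 11.70 on the control arrays. It was lower at each week, with a mean of -0.43 ± 0.23 (SE; limma adjusted p = 0.99), and its second probe set differed by 0.08, -0.24 and -0.38. Ndufs4, needed to finish and stabilise the complex, had 11.13, 11.78 and 10.98 on the high-fat arrays, against 11.57, 12.0 and 11.49 on the control arrays. Its mean difference was -0.39 ± 0.21 (SE; limma adjusted p = 0.99). Its other 2 probe sets did not follow it: 1 differed by 0.34, 0.67 and -0.14 and the other by -0.25, -0.32 and 0.54.

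Ndufb5, a subunit of the membrane arm, had 12.42, 12.62 and 12.71 on the high-fat arrays, against 13.13, 13.13 and 12.37 on the control arrays. Its -0.71 at week 2 was the second lowest value of any member that week, while its other probe set differed by -0.20, -0.26 and -0.03. Ndufa7, an accessory subunit, was lower on all 5 of its probe sets at weeks 2 and 4, between -0.64 and -0.32 at week 2 and between -0.56 and -0.13 at week 4, and lay between -0.44 and 0.01 at week 10. Ndufa12, which sits beside the core of the matrix arm, differed by -0.49, -0.81 and -0.02 on 1 probe set and by 0.05, -0.21 and -0.82 on another. Ndufb7, on the outer face of the membrane arm, differed by 0.21, 0.54 and -0.61 on its brighter probe set and by 0.10, -0.23 and -0.23 on the other.

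Ndufb1, a small subunit of the membrane arm, was the member with the largest mean difference and the only one with an unadjusted p under 0.05. It was dim, at 7.83, 8.10 and 7.28 on the high-fat arrays, against 9.18, 8.43 and 8.59 on the control arrays. The high-fat array of week 10 was at the floor, so that its -1.31 there is a bound and the true difference may be larger. Its mean difference was -1.0 ± 0.26 (SE; limma adjusted p = 0.99), and it was lower on the high-fat array at 3 of 3 weeks. It rests on 1 probe set. Ndufa10, in the membrane arm, had the second highest mean of complex I, by the probe set that stands for each gene, at 0.08 ± 0.22 (SE), with weekly differences of 0.30, -0.23 and 0.17.

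Complex II, succinate dehydrogenase, feeds electrons from the citric acid cycle. Sdha, its flavoprotein, had 12.66, 13.14 and 13.10 on the high-fat arrays of weeks 2, 4 and 10, against 12.67, 13.49 and 12.67 on the control arrays. It was level at week 2, lower at week 4 by 0.35 and higher at week 10 by 0.44, and its second probe set differed by 0.21, -0.14 and 0.38. Sdhb, the iron-sulphur subunit, had 12.85, 13.06 and 13.36 on the high-fat arrays, against 13.22, 13.99 and 13.32 on the control arrays. Its difference of -0.92 at week 4 was the lowest of any member that week, and its mean was -0.42 ± 0.25 (SE; limma adjusted p = 0.99).

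The membrane anchors Sdhc and Sdhd have 2 probe sets each, which disagreed. For Sdhc the brighter one on average differed by -0.11, -0.44 and 0.22 and the other by 0.26, -0.03 and -0.07. For Sdhd the brighter one, at 12.32, 12.49 and 12.80 on the high-fat arrays against 12.80, 13.15 and 12.66 on the control arrays, differed by -0.48, -0.67 and 0.14. The other differed by 0.58, 0.50 and -0.88, opposite in sign at every week. Its 0.58 was the highest difference of any member at week 2.

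Complex III passes electrons to cytochrome c. Its core subunits are Uqcrc1, Uqcrc2, the Rieske protein Uqcrfs1 and cytochrome c1, Cyc1. Cyc1 had 13.07, 13.04 and 13.19 on the high-fat arrays, against 13.24, 13.59 and 13.32 on the control arrays, lower at each week with a mean of -0.28 ± 0.22 (SE; limma adjusted p = 0.99). Against its brightness bin, Cyc1 lay at -0.12, -0.08 and 0.03. Uqcrc1 differed by 0.15, -0.35 and -0.33 and Uqcrfs1 by -0.03, -0.51 and 0.19. The 2 probe sets of Uqcrc2 differed by -0.31, 0.01 and -0.04 and by 0.25, 0.25 and -0.93, the lowest complex III value of week 10.

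Among its small subunits, Uqcrb, which lies near the ubiquinone site, had 14.65, 14.85 and 15.05 on the high-fat arrays, against 14.69, 15.48 and 15.30 on the control arrays. Its second probe set differed by -0.24, -0.38 and -0.40, so both were lower at each week, though the mean of the brighter one, -0.31, turned to 0.17 under quantile and 0.05 under loess scaling. Uqcrh, the hinge protein, differed by -0.11, -0.58 and 0.39. Uqcr10 differed by -0.21, -0.25 and 0.59 on its brightest probe set, while its 3 probe sets lay between -0.28 and 0.59 at week 10. Uqcrq had its highest value at week 10, 0.64, on a dim probe set that was at the floor on both arrays of week 4, while its bright probe set differed by -0.33, -0.49 and 0.10.

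Complex IV reduces oxygen, and its catalytic core, which comes from mitochondrial DNA, was not analysed here. Cox4i1, the ubiquitous isoform of subunit 4, differed by -0.11, -0.51 and 0.52. Cox5a, a matrix-side subunit, differed by 0.10, -0.38 and -0.33 on its brightest probe set, and another read 0.53 at week 2. Cox5b had 13.77, 13.85 and 13.63 on the high-fat arrays, against 13.73, 14.66 and 13.90 on the control arrays, a mean of -0.35 ± 0.24 (SE; limma adjusted p = 0.99). Its 4 bright probe sets were all a little higher at week 2 and all lower at week 4, and they differed in sign at week 10. A dim probe set of Cox5b read 1.63 at week 10, the highest value of any member that week, from 9.08 on the high-fat array and 7.45 on the control array. It was at the floor on both arrays of week 4.

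Cox7a2, the liver isoform of subunit 7a, had 14.03, 14.17 and 14.13 on the high-fat arrays, against 14.40, 14.54 and 14.33 on the control arrays. Its second probe set differed by -0.28, -0.27 and -0.16, so both were lower at each week with little spread between weeks. Under quantile and loess scaling that did not hold for both probe sets. Against its brightness bin, the brighter probe set of Cox7a2 lay at -0.31, 0.09 and -0.03. Cox8a, the isoform of subunit 8 in liver, differed by -0.13, -0.31 and 0.45. Cox6c differed by -0.34, -0.62 and 0.16 on its bright probe set and by -0.14, 0.09 and 0.97 on the other. Ndufa4, once placed in complex I and now counted in complex IV, differed by -0.48, -0.39 and 0.45.

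Several subunits of complex IV have isoforms of heart, muscle, lung or testis, and these were dim. Cox4i2, the lung and hypoxia isoform, lay between 7.97 and 8.69 on the arrays of weeks 2 and 10 and at the floor on those of week 4. Cox6a2, the heart and muscle isoform, lay between 8.26 and 8.90 at weeks 2 and 10 and at the floor at week 4, and Cox7a1, also of heart and muscle, stayed at or under 7.76. Cox6b2 and Cox8b were at or within rounding of the floor on all 6 arrays and were not tested. Cox8c, a testis isoform, was the exception, with 10.61, 8.12 and 10.39 on the high-fat arrays, against 10.25, 7.81 and 10.67 on the control arrays. The probe sets of Cox8c, Cox4i2 and Cox6a2 all read lower on the larger array design of week 4 than on the smaller one, in either diet. Of 9 muscle markers, Acta1, Myh1, Myh4, Mb, Tnnt3, Tnni3 and Myh6 were not above the floor on 3 arrays. The creatine kinase Ckm was, with 7.88, 7.28 and 7.48 on the high-fat arrays, against 7.36, 7.28 and 8.07 on the control arrays. The cardiac actin Actc1 had 7.52, 7.28 and 8.58 on the high-fat arrays, against 7.76, 7.28 and 7.29 on the control arrays, so that it was 1.29 higher at week 10. Its part in the week 10 values of the isoforms was not tested.

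**Figure D3:**
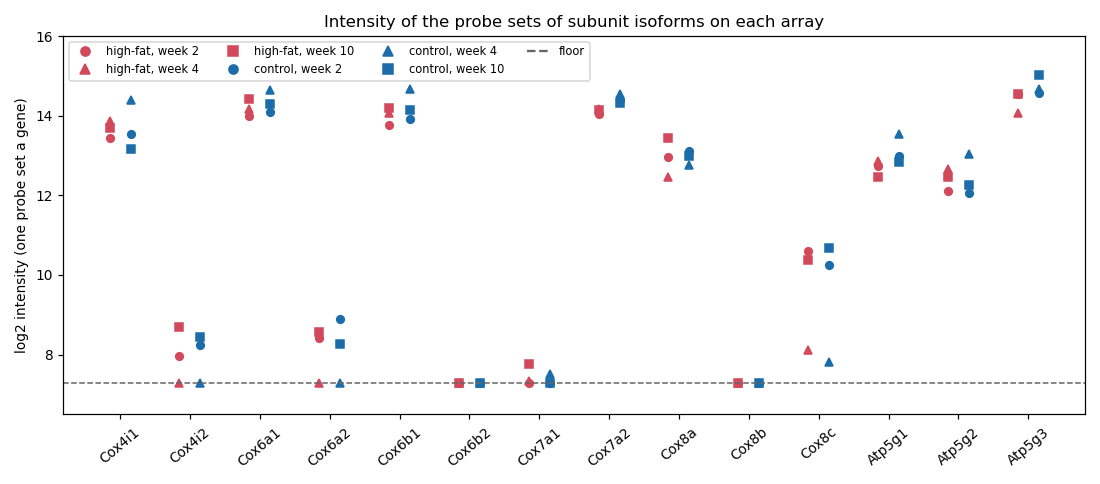
Log2 intensity on each array (vertical axis) of the brightest probe set of subunit isoforms of complexes IV and V, with high-fat arrays left of control arrays, a symbol for each week and the floor dashed. Each probe set binds its target differently, so a gene should be read against the floor and across its own arrays: Cox6b2 and Cox8b sit on the floor, and Cox8c lies between 7.81 and 10.67.

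Cox7c, a subunit found in all tissues, was not tested either: of its 2 probe sets, 1 was at the floor on all 6 arrays and the other read 7.28, 7.28 and 7.28 on the high-fat arrays, against 7.33, 7.28 and 7.55 on the control arrays. In all, 11 of the 160 probe sets were not tested, and Cox7c, Cox6b2 and Cox8b were the 3 genes without any tested probe set.

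Complex V makes ATP. Its F1 head and central stalk (Atp5a1, Atp5b, Atp5c1, Atp5d and Atp5e, 9 tested probe sets) had medians of -0.05, -0.25 and -0.07. Its membrane c-ring, encoded by Atp5g1, Atp5g2 and Atp5g3, had -0.02, -0.60 and -0.38 over 3 probe sets. The catalytic subunit Atp5b had weekly differences of -0.21, -0.69 and -0.21, a mean of -0.37 ± 0.22 (SE; limma adjusted p = 0.99). Atp5c1, the rotor subunit, differed by -0.49, -0.44 and -0.07 on its brighter probe set and by -0.30, 0.00 and 0.34 on the other. Atp5a1 differed by -0.31, -0.25 and 0.32 on its bright probe set, while a dim one differed by 0.51, -0.19 and -1.37, the lowest value of any member at week 10.

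Of the c-ring genes, which encode the same mature protein, Atp5g1 had 12.75, 12.87 and 12.45 on the high-fat arrays, against 12.99, 13.55 and 12.83 on the control arrays, a mean of -0.44 ± 0.22 (SE; limma adjusted p = 0.99). Atp5g3 differed by -0.02, -0.60 and -0.46, and Atp5g2 by 0.05, -0.38 and 0.20. Atp5o, which links the head to the peripheral stalk, had 12.22, 12.80 and 12.47 on the high-fat arrays, against 12.54, 13.08 and 13.20 on the control arrays. That probe set, the brighter of 2, was lower at each week, most at week 10, with a mean of -0.44 ± 0.22 (SE; limma adjusted p = 0.99). The other differed by 0.12, -0.01 and -0.04. Atp5h, the stalk subunit whose window is printed above, differed by -0.04, -0.32 and -0.05 on its brighter probe set and by -0.44, -0.31 and -0.26 on the other. Atp5k, a small membrane subunit, had the highest mean of complex V by the probe set that stands for each gene, 0.06 ± 0.23 (SE), with 0.02, -0.27 and 0.44.

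**Figure D4:**
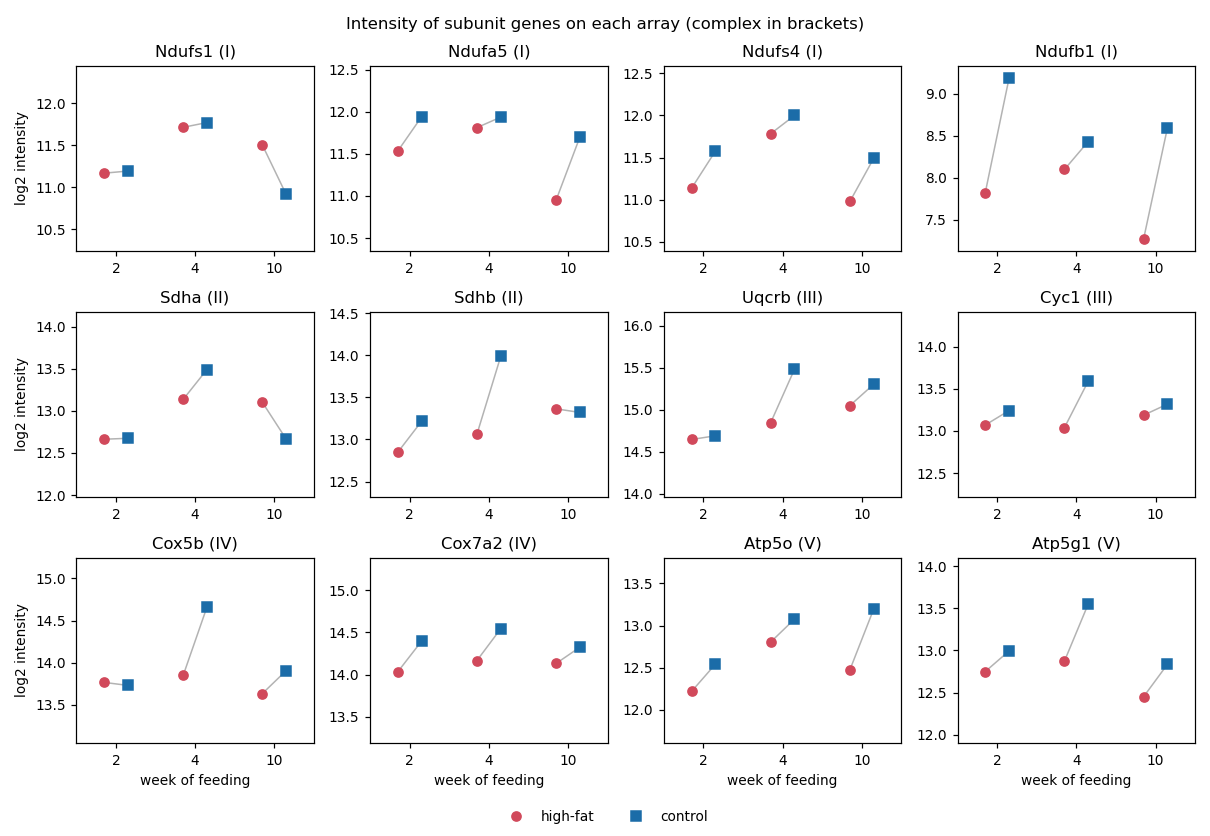
Log2 intensity (vertical axis, the same length in every panel) on the high-fat array (circle) and the control array (square) at weeks 2, 4 and 10 for subunit genes of complexes I to V, 1 probe set each. Ndufa5, Ndufs4, Ndufb1, Uqcrb, Cyc1, Cox7a2, Atp5o and Atp5g1 are lower in high-fat liver at weeks 2, 4 and 10, and Sdha and Ndufs1 are higher on it at week 10.

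Cytochrome c, Cycs, carries electrons between complexes III and IV. It had 13.53, 13.63 and 13.02 on the high-fat arrays, against 13.76, 13.74 and 13.57 on the control arrays. Its 3 probe sets differed at week 10 by -0.55, -0.44 and -0.43, the week at which they lay closest, and 2 of them were lower at every week. Cox7a2l had medians of 0.23, -0.17 and 0.00 over 3 probe sets. The 5 assembly factors, with 6 probe sets, had medians of -0.20, 0.01 and -0.26. Both probe sets of Ndufaf4 were lower at week 10, by 0.96 and 0.71.

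How far probe sets of a gene agree bounds what a single one can show. Of 43 genes with 2 or more tested probe sets, all probe sets had the same sign in 25 at week 2, 32 at week 4 and 23 at week 10. The median range between probe sets of a gene was 0.29, 0.19 and 0.36, as large as or larger than the size of the members' median difference at weeks 2 and 10. In 18 of 83 tested member genes (21.7%) every tested probe set was lower at every week, against 7.83% of all 8866 tested genes, and in 7 of these that held for 2 probe sets: Atp5h, Atp5j2, Cox7a2, Ndufab1, Ndufb2, Ndufb6 and Uqcrb. No member gene was higher in that way, against 5.21% of all. These shares of all genes cover genes of any brightness. Over probe sets, 30.2% of members were lower at every week, against 26.0% of other probe sets of the 2 brightest bins. The 18 became 25 on the deposited scale, against 14.1% of all, and 9 under quantile and 9 under loess scaling (10.8% in each case, against 7.38% and 6.12% of all), and Ndufb6 was the gene with 2 probe sets found under both. Probe sets whose identifier marks possible matches to other transcripts (82 tested) had medians of -0.05, -0.31 and -0.09, and the remaining 67 had -0.21, -0.31 and 0.10. The sign of the members' median at week 10 therefore differed between these kinds of probe set.

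Weeks 2 and 10 share an array design, so levels could be set across them. From week 2 to week 10 the median log2 difference (week 10 minus week 2) was -0.01 in high-fat livers and -0.08 in control livers over the 149 members, against 0.08 and 0.01 over all tested probe sets. Complex II had 0.34 in high-fat and 0.11 in control livers, and complex IV 0.23 and -0.01. On the larger array of week 4 alone, 24 further probe sets of 20 member genes fitted the rule. Of these, 8 were above the floor on 1 or both arrays, with a median difference of -0.22.

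Related genes were read from lists, with 1 probe set per gene. None of them passed the test in any list (limma adjusted p, 0 of 26 assembly factors, 13 regulators, 16 citric acid cycle genes, 8 carriers and porins and 11 genes of other electron entry). Assembly factors had medians of -0.05, -0.12 and -0.01 at weeks 2, 4 and 10. The citric acid cycle genes had 0.06, -0.11 and -0.01, with 13 of 16 lower at week 4, against 45.8% of all tested probe sets. Set against their brightness bins, 8 of these 16 lay below the bin median at week 4. Carriers, porins and uncoupling proteins had -0.01, -0.25 and 0.01. Slc25a5, the ADP/ATP carrier of liver, differed by -0.33, -0.61 and 0.08, and the porin Vdac1 by 0.01, -0.52 and -0.29. At week 4 these bright mitochondrial carriers thus read low on the high-fat array as the subunits did.

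Regulators of mitochondrial genes had medians of 0.11, 0.09 and -0.39, with 9 of 13 lower at week 10, against 47.8% of all tested probe sets. Ppargc1a, a coactivator that drives mitochondrial genes, differed by 0.40, 0.09 and 0.18, Nrf1 by 0.21, 0.00 (both arrays at the floor) and 0.47, and Gabpa by -0.21, 0.29 and -0.67. Tfam, which packages mitochondrial DNA, differed by -0.21, 0.61 and -0.36, and Tfb2m, needed for its transcription, by 0.08, -0.20 and -1.82. In the list of other electron entry, the electron-transferring flavoprotein genes Etfa (-0.18, -0.46 and -0.25) and Etfb (-0.03, -0.35 and -0.16) were lower at each week. Against their brightness bin, Etfa lay at -0.13, 0.01 and -0.09 and Etfb at 0.02, 0.12 and 0.003. Gpd2, the mitochondrial glycerol-3-phosphate dehydrogenase, was higher at each week by 0.52, 0.74 and 0.68, a mean of 0.65 ± 0.21 (SE; limma adjusted p = 0.99); it was singled out after its values were seen.

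The labelled tissue was checked on hepatocyte markers, which were among the brightest probe sets: Alb lay between 14.56 and 16.03 on the high-fat arrays and between 15.45 and 16.54 on the control arrays. These markers also differed between the high-fat and control arrays. The median of 8 was -0.16, -0.86 and -0.49 at weeks 2, 4 and 10. All 8 were lower at weeks 4 and 10, against 45.8% and 47.8% of all tested probe sets. At every week 7 of 8 were lower, against 11.7% of all tested probe sets and 26.0% of other bright ones. Against their brightness bin the medians were -0.11, -0.39 and -0.33, further below it than the members at weeks 4 and 10. The brightest bin has 1 median for all its probe sets, at a median brightness of 13.51, and these markers were brighter on average. Brightness within that bin was therefore not taken off. Macrophage and Kupffer cell markers had -0.10, -0.04 and 0.71, with 11 of 11 higher at week 10, when 47.8% of all tested probe sets were lower. The ratio of 3′ to 5′ signal, a sign of RNA quality, differed between diets as well: the log2 difference was 0.42, 0.13 and -0.56 for actin, 0.37, -0.01 and -0.12 for Gapdh and 1.33, 0.87 and -0.74 for pyruvate carboxylase. The part of cell make-up, RNA quality and array brightness in the members' differences was not tested.

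**Figure D5:**
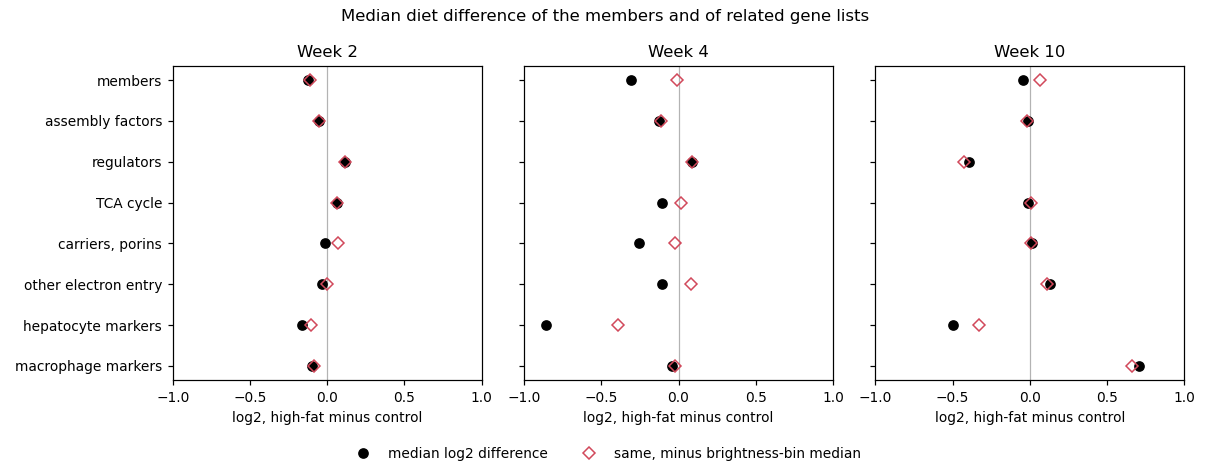
Median log2 difference (high-fat minus control, filled circles) at weeks 2, 4 and 10 of the 149 member probe sets and of 7 lists of related or marker genes, and the same after subtracting the brightness-bin median (open diamonds). At week 4 the members' median goes to -0.01 when the bin median is subtracted, while that of the hepatocyte markers goes to -0.39. Those markers lie above the median brightness of their bin.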

How the data were processed

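Liver RNA of 6 samples was measured on Affymetrix arrays. The deposited values are linear signal intensities per probe set, scaled by the authors; their summarization method is not given in these sources. Judged by the values, a 2% trimmed mean came to 500 on 5 arrays and to 800.3 on the control array of week 2. The 22626 probe sets shared by both designs were put on the log2 scale, centred per array and floored at the pooled 40th percentile; 14533 were tested with limma 3.58.1 (R 4.3.3, Python 3.11.15), week as block, Benjamini-Hochberg at 0.05, and the script was tested on simulated data. Single weeks have no test. With no detection or depth values used, the number of arrays limits precision. Named genes were core subunits, isoform families, each complex's 2 highest and 2 lowest mean differences, and each week's 3 highest and 3 lowest probe sets; the brightest probe set stands for a gene. Members and lists were chosen with earlier results of these data known. Alternatives covered scaling, floor, filter, fit, probe-set choice, brightness bins and leaving out a week. Some subunits were not analysed here.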

Additional observations from a re-analysis of the deposited data

Results flagged for a closer look

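Complexes II and IV had medians of opposite sign at 2 weeks. For complex II the median log2 difference, high-fat minus control, was -0.35 at week 4 and 0.14 at week 10, over 7 probe sets of 4 genes. For complex IV it was -0.38 at week 4 and 0.080 at week 10, over 24 probe sets. Without 4 probe sets of tissue isoforms, its median at week 10 was 0.0043, with 10 probe sets lower and 10 higher in high-fat liver. Each week has 1 array per diet, so the difference between weeks was not tested. The medians of week 4 shrank to -0.04 and -0.01 under quantile scaling and to -0.03 and 0.00 under loess, while those of week 10 became 0.23 and 0.16, and 0.22 and 0.21.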

How the results depend on the processing

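The diets were paired by week, which was the block; without the week block 0 members passed, with a lowest adjusted p of 1.0 (limma). In none of 14 other fits, and under neither of 2 other choices of members, did a member pass the test, with a lowest adjusted p of 0.307 (limma, without week 10); members at an unadjusted p under 0.05 numbered at most 19 (no filter on low values). Of 300 medians recomputed, 270 moved by less than their spread between weeks. On the deposited scale, where the control array of week 2 was scaled higher and the median of all probe sets at week 2 was -0.67, the medians of week 2 were -0.79 for all members and -0.79, -0.68, -0.86, -0.82 and -0.71 for complexes I to V, and the means over the weeks -0.34 for all members, -0.35 for complex I, -0.32 for complex III and -0.39 for complex V. At week 4, quantile scaling gave -0.039 for all members and -0.074, -0.041, -0.045, -0.012 and 0.011 for complexes I to V, and loess gave -0.0041 for all members and -0.026, -0.033, -0.011, 0 and 0.028. With the brightest probe set per gene, complex III was -0.49 at week 4. Without probe sets that may match other transcripts, week 10 was 0.10 for all members, 0.14 for complex I and 0.19 for complex III, complex II was -0.37 at week 2, -0.67 at week 4 and -0.34 over the weeks, and complex V was -0.20 at week 2; the cause was not tested. Leaving out a week gave means of -0.21 to -0.10 for all members, and after subtracting the brightness median -0.06 to 0.02. That subtracted median stayed within its spread between weeks in every setting run, including, chosen after seeing the data, the 200 nearest probe sets in brightness (-0.13, -0.03 and 0.02 at weeks 2, 4 and 10) and the removal of assembly factors, carriers and tissue isoforms (-0.11, -0.01 and 0.08). This spread is larger than the medians of weeks 4 and 10, so staying within it does not fix their sign. A value of a named probe set counted as moved only if it changed sign and by more than its spread between weeks. By that rule 2 of 613 recomputed values moved, both of Uqcrb. A change in size with the same sign was not counted. With 1 array per diet and week, single differences cannot be told from differences between arrays.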
